A study of Mus musculus with 4 samples.

Results

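The 6 genes described here, Sox4, Sox7, Sox9, Sox11, Sox17 and Sox18, encode SOX transcription factors measured in somatic cells of the fetal ovary, and they were chosen by name among the 19321 genes of the deposited table, in which all 6 were found. Gonads of C57BL/6 mouse embryos with XX sex chromosomes were taken on the embryonic days E11.5, E12.5, E13.5 or E14.5, dissociated with a trypsin-like enzyme and profiled one cell at a time with version 2 of the droplet-based 10x 3' kit. The labels name no transgene, mutation or treatment for any group. Each stage was 1 library, the number of embryos behind a library is not given in the sources used here, and a difference between stages cannot be told apart from a difference between libraries. No test between stages was therefore made, and all intervals are 95% intervals that cover counting error only.

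SOX proteins share a DNA-binding domain, the HMG box, which bends DNA in its minor groove, and they usually act with partner factors that differ between cell types. SOX4 and SOX11 belong to the SOXC group, which is found in many embryonic progenitors. SOX9 belongs to the SOXE group, which drives Sertoli cell development in the testis and cartilage formation elsewhere, while SOX7, SOX17 and SOX18 form the SOXF group of the vascular and lymphatic endothelium.

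Cells were placed in 5 classes by the genes they contained. A supporting cell, of the lineage that gives rise to granulosa cells, had at least 3 of Fst, Wnt4, Wnt6, Irx3 and Runx1. A surface epithelial cell had Upk3b with Krt19 or Krt7, an interstitial cell had Col1a1 with Tcf21, and an endothelial cell had Pecam1 with Cdh5. A germ cell had at least 3 of 6 germline genes and served as the comparison outside the soma. A cell that met more than 1 rule was left out. Levels are counts per 1000000 (CPM), that is, the molecules of a gene, counted as unique molecular identifiers (UMIs) and summed over a class, scaled to 1000000 UMIs of that class. A gene was called higher or lower between 2 sums when its level differed at least 2-fold, with at least 50 UMIs over both sums and with Poisson intervals that did not overlap. This is a rule of size and not a test.

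The 4 libraries held 4787 to 4916 cells with a median of 11360 to 14258 UMIs. The lowest UMI count of a cell differed between them, at 8823, 9791, 5407 and 7854 in stage order. Supporting cells with at least 9791 UMIs numbered 2142 of 2142 at E12.5 and 311 of 660 at E14.5. The endothelial class was the smallest, with 133, 174, 86 and 36 cells in stage order, and the supporting class held 2154, 2142, 1724 and 660. All 9 further endothelial markers were highest in the endothelial class at every stage, as were 7 of 8 further supporting markers in the supporting class. Of 9 surface epithelial markers, which include the rule genes Krt19 and Krt7, 6, 7, 8 and 9 were highest in their class in stage order. Foxl2, a supporting marker that defines granulosa cells, was at most 0.342 CPM in the supporting class. Hemoglobin and other erythroid transcripts were higher at E14.5 than at E11.5 in every class, for example 15926 against 3502 CPM in supporting cells and 13646 against 4553 CPM in surface epithelial cells, and their part in differences between these stages was not tested. UMIs of Y-linked genes, which an XX gonad should lack, were found at E14.5 and in no other library, in 157 of 660 supporting, 72 of 344 surface epithelial, 40 of 202 interstitial and 5 of 36 endothelial cells. Each of these somatic cells also had Xist. At E12.5, 111 of 2142 supporting cells had no Xist UMI. In total 175 cell barcodes occurred in more than 1 library, in 354 cells. With cells that had a Y-linked UMI and somatic cells that lacked Xist left out, an alternative chosen after seeing the data, all 120 levels of the 6 genes stayed within the counting intervals of their main values. This kept 2152 of 2154 supporting cells at E11.5, 503 of 660 at E14.5 and every germ cell before E14.5, so many levels could hardly move. Y-linked genes summed to 39.1 CPM in supporting cells at E14.5, so a cell without such a UMI is not shown to be XX.

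**Figure D1:**
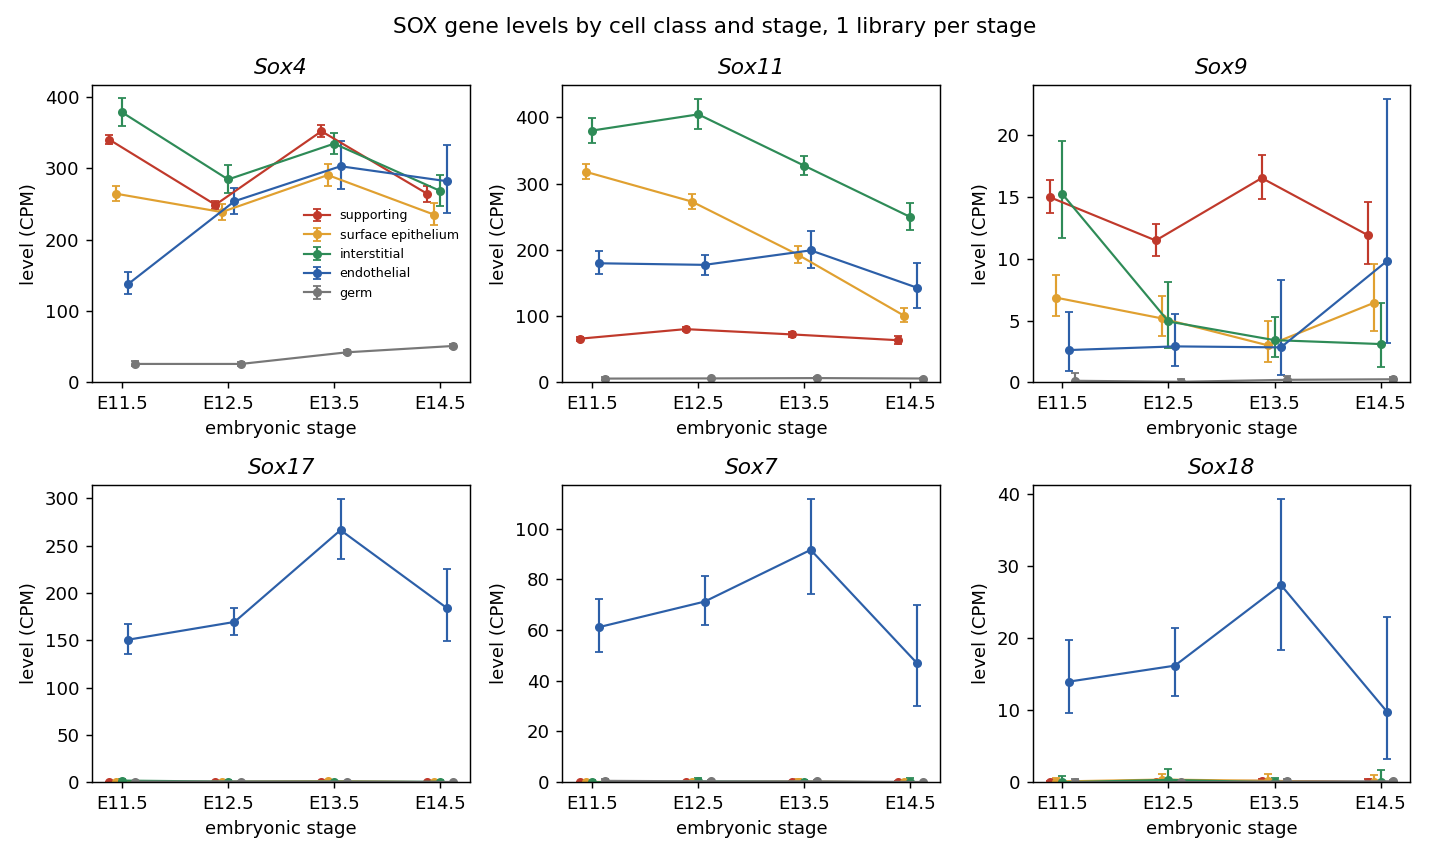
Level of each gene in CPM (vertical axis, a separate scale in each panel) by embryonic stage (horizontal axis) in 5 cell classes. Points are 1 library each, bars are 95% Poisson intervals of the UMI count, and lines join the stages of a class; Sox17, Sox7 and Sox18 stand above the baseline in the endothelial class alone, while Sox4 and Sox11 were present in all 4 somatic classes.

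Sox4 and Sox11 each have a single exon, Sox4 at chr13:28948919-28953713 and Sox11 at chr12:27334264-27342574, both on the minus strand of GRCm38. Their upstream sequences are shown because the 2 genes, which belong to 1 group, had different patterns across the somatic classes. Promoter sequences from RefSeq (GRCm38.p6) were matched for 2 of the 6 genes, and none was used for Sox7, Sox9, Sox17 and Sox18. The windows lie upstream of the annotated start, at chr12:27342719-27342968 for Sox11 (250 bases) and chr13:28953714-28953949 for Sox4 (236 bases), and are written 5′ to 3′ on the minus strand, with capitals for the letters CCAAT and GGGCGG or their reverse complements ATTGG and CCGCCC.
Sox11: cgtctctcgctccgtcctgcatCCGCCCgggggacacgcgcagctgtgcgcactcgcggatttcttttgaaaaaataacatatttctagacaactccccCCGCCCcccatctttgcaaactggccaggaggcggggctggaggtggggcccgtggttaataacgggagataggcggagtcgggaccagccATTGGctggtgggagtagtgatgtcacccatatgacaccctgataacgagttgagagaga
Sox4: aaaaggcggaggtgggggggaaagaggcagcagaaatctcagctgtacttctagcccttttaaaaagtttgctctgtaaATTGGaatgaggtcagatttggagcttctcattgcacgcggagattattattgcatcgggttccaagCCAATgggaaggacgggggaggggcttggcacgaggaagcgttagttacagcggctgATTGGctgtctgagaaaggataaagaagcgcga
The Sox11 window held 1 CCAAT and 2 GGGCGG matches, and the Sox4 window held 3 CCAAT and 0 GGGCGG matches, counted on both strands. Of 27025 promoter windows of 250 bases, 34.5% held CCAAT and 32.9% held GGGCGG, and over 236 bases the shares were 33.3% and 30.9%. Neither window held TATAAA (found in 13% of the windows of 250 bases) or the SOX-type letters AACAAT (9.65%, and 9.33% over 236 bases). These matches describe letters in a window and not bound sites.

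Sox11, whose product acts in progenitors of the nervous system and of mesenchyme, was high in the interstitial and surface epithelial classes and low in the supporting class. In interstitial cells it stood at 380, 404, 327 and 249.5 CPM in stage order, from the earliest library to the latest. In surface epithelial cells it stood at 318, 273, 193 and 101 CPM, a lower value at each later stage with no overlap between the intervals of neighbouring stages. In supporting cells it was 66, 80.5, 72.5 and 63.8 CPM, so the lowest surface value was above the highest supporting value. Endothelial cells had 179.8, 177, 199 and 143 CPM, between the supporting and interstitial classes at every stage, and germ cells 5.89, 6.16, 6.65 and 5.99 CPM.

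Between E11.5 and E14.5, Sox11 in the surface epithelium fell by 1.66 on the log2 scale (interval -1.81 to -1.5) and was called lower, as were 2.29% of the 10128 genes tested there. From stage to stage its log2 ratio was -0.22, -0.50 and -0.93, with the largest step last. Without the cells that had a Y-linked UMI or lacked Xist the log2 ratio was -1.73. Erythroid transcripts in the surface epithelium were at 4553, 3506, 3452 and 13646 CPM, and their part in the Sox11 difference was not tested. In interstitial cells the log2 ratio was -0.61 (-0.75 to -0.47) and in supporting cells -0.05 (-0.19 to 0.09), and neither was called. The endothelial log2 ratio of -0.33 had an interval of -0.71 to 0.03 that included 0.

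Fewer surface epithelial cells held a Sox11 molecule at the later stages. To compare shares at 1 depth, UMIs of every cell were drawn down to 5000, which is called thinning here. Sox11 was then detected in 75.3% (71.7 to 78.7), 69.7%, 58.4% and 33.1% (28.2 to 38.4) of surface epithelial cells in stage order. Without thinning the shares at E11.5 and E14.5 were 95.7% and 52.3%. Cells with at least 4 Sox11 UMIs made up 10.9% of the thinned surface epithelial cells at E11.5 and 1.74% at E14.5. In interstitial cells the detected share was 75.3%, 79.5%, 71.2% and 68.3%, and in germ cells it was 3.51%, 3.30%, 3.19% and 2.78%. Before thinning the median depth of surface epithelial cells was 15562 UMIs at E11.5 and 9886 at E14.5, and that of germ cells 31050 and 15389.

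**Figure D2:**
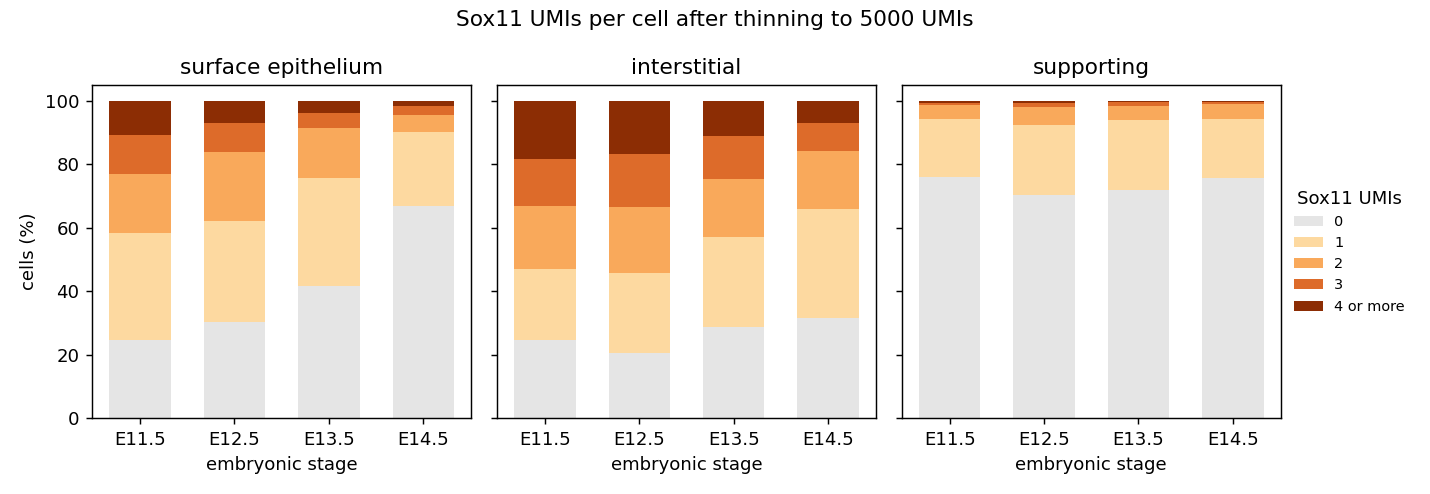
Share of cells (vertical axis, percent) with 0, 1, 2, 3 or at least 4 Sox11 UMIs after thinning to 5000 UMIs, by stage (horizontal axis) in 3 somatic classes. The part of surface epithelial cells with 0 UMIs was 24.7% at E11.5 and 66.9% at E14.5, while that of supporting cells lay between 70.3% and 75.9%.

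Within each library the interstitial class exceeded the supporting class in Sox11 by a log2 ratio of 2.53 (2.43 to 2.62), 2.33, 2.17 and 1.97 (1.79 to 2.15) in stage order, and was called higher in 4 of 4 stages. The shares of all tested genes called higher there were 12%, 9.84%, 10.1% and 8.52%. The surface epithelium was called higher than the supporting class in the first 3 stages, with log2 ratios of 2.27, 1.76 and 1.41, against shares of 10.2%, 8.38% and 7.55% called higher among all tested genes. At E14.5 that log2 ratio was 0.66 (0.46 to 0.86) and was not called. Interstitial and surface epithelial levels differed by 0.26 on the log2 scale at E11.5 and by 1.31 (1.12 to 1.5) at E14.5, where the interstitial class was called higher, as were 6.79% of genes. The endothelial class was called higher than the supporting class in 4 of 4 stages, with log2 ratios of 1.45, 1.14, 1.46 and 1.17, where 32.7%, 32.5%, 28.7% and 20.9% of genes were called in either direction.

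Sox4, whose product acts in many of the same progenitors and is known for a part in gonad morphogenesis, was spread more evenly. Supporting cells had 340.4, 249, 352 and 264 CPM, with E11.5 and E13.5 above E12.5 and E14.5 and no overlap between these pairs. Surface epithelial cells had 265, 239, 291 and 235 CPM and interstitial cells 379, 285, 335 and 269 CPM, with the same order of high and low stages. Between the supporting, surface epithelial and interstitial classes Sox4 differed by less than 2-fold at every stage.

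The endothelial class had a different course for Sox4, with 138, 254, 303 and 282 CPM. The E11.5 value lay below the other 3 with no overlap of intervals, and the log2 ratio of E14.5 over E11.5 was 1.03 (0.73 to 1.32), called higher, as were 2.58% of the 5703 genes tested. This rests on 36 cells at E14.5 and stood close to the 2-fold limit. It was 0.85 with the cells of more than 1 class kept, 0.86 as a mean over cells and 0.98 under median-of-ratios scaling, none of which reaches 2-fold. It was 1.13 without the cells that had a Y-linked UMI or lacked Xist. In the endothelial class the 9 interstitial markers summed to 90.3, 149, 125 and 223 CPM, the 6 perivascular markers to 63.3, 63.4, 78.4 and 125 CPM and the 9 immune markers to 25.3, 11, 9.44 and 84.3 CPM. Of the interstitial sum, Nr2f2, grouped below with venous genes, made up 67.6, 134.6, 107.7 and 125.4 CPM. Of the perivascular sum, Mcam made up 52.8, 59.9, 73.7 and 50.95 CPM. Among the other markers Acta2, of smooth muscle, was at 3.06 and 58.8 CPM at the first and last stage and the collagen gene Col1a2 at 3.93 and 37.2 CPM. The part of these markers in the Sox4 difference was not tested. The thinned share of endothelial cells with Sox4 was 45.1% (36.5 to 54.0), 65.5%, 73.3% and 69.4% (51.9 to 83.7). Unthinned, it was 78.2% at E11.5 and 80.6% at E14.5, with median depths of 15357 and 11366 UMIs. In germ cells the thinned share was 10.1%, 12.54%, 19.1% and 22.7%. At E11.5 the endothelial level was below the supporting one by a log2 ratio of -1.30 (-1.46 to -1.14), called lower, as were 19.8% of genes, and at the 3 later stages no call was made.

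Germ cells had far less Sox4, at 26.0, 26.0, 42.3 and 51.2 CPM. The log2 ratio of the supporting over the germ class was 3.71 (3.50 to 3.92) at E11.5 and 2.37 (2.28 to 2.46) at E14.5, and the supporting class was called higher at all 4 stages, against 37.8%, 35.7%, 33.6% and 27.6% of genes. Within the germ class the log2 ratio of E14.5 over E11.5 was 0.98 (0.76 to 1.2), just under the 2-fold limit, where 28.5% of 12194 genes were called higher. Under median-of-ratios scaling it was 0.61. The summed level of 8 supporting markers in the germ class was 36.4, 28.2, 27.2 and 26.8 CPM over the same stages. There the 9 interstitial markers summed to 18.9, 19.0, 27.45 and 48.7 CPM and the 7 erythroid markers to 2397, 1664, 1418 and 5387 CPM. The part of these lists in the germ Sox4 difference was not tested. In the 3 remaining somatic classes Sox4 gave log2 ratios of -0.37 in supporting, -0.17 in surface epithelial and -0.50 in interstitial cells.

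**Figure D3:**
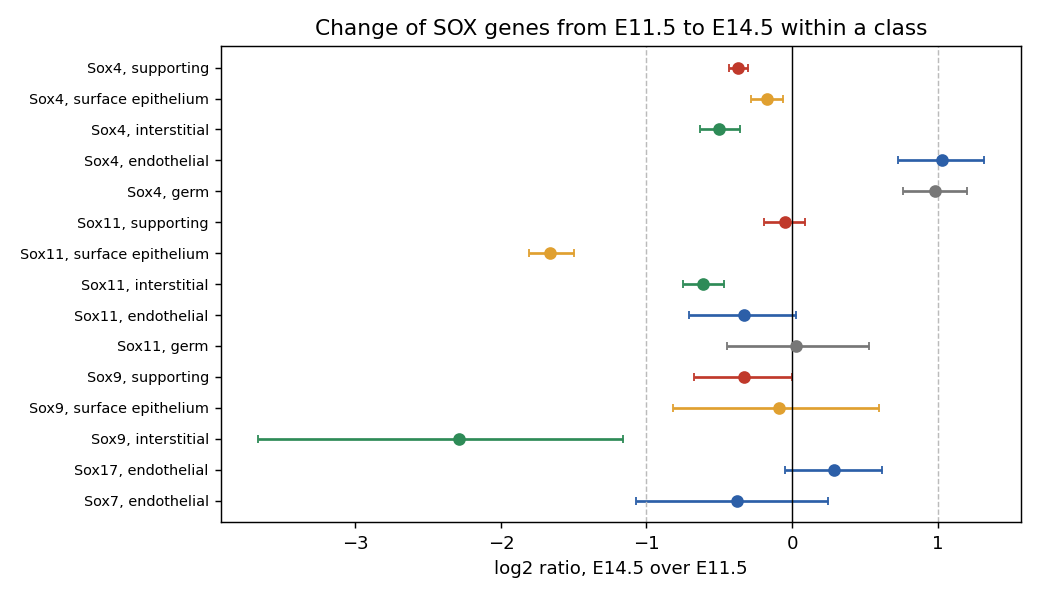
Log2 ratio of the level at E14.5 over E11.5 (horizontal axis) for each gene and class with at least 50 UMIs over both stages (vertical axis), with 95% exact binomial intervals; colours mark the classes and dashed lines mark a 2-fold difference. Sox11 in the surface epithelium (-1.66) and Sox9 in interstitial cells (-2.29) lie beyond the lower dashed line and Sox4 in endothelial cells (1.03) just beyond the upper one.

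Sox4 and Sox11 were detected together about as often as the product of their separate shares. Both were found in 51.4%, 49.0%, 44.7% and 19.2% of surface epithelial cells in stage order, where that product was 52.0%, 48.1%, 43.9% and 20.8%. In interstitial cells both were found in 63.3%, 57.6%, 55.2% and 47.5%, and the product was 62.5%, 57.6%, 54.1% and 47.7%. In these 2 classes the product lay within the interval of the joint share at every stage. In supporting cells both were detected in 17.3% to 21.3% and Sox4 without Sox11 in 44.1% to 56.0%. In endothelial cells Sox11 without Sox4 was found in 34.6% at the first stage and 5.56% at the last, while Sox4 without Sox11 stood at 19.5% and 38.9%. A molecule can be missed in any cell and free RNA can add one, so these shares describe detection and not expression in single cells.

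Of 12 genes listed as SOXC targets or progenitor genes, 7 could be tested in the surface epithelium between E11.5 and E14.5, where 2 were called lower and 0 higher, beside 2.29% and 5.92% of all genes. Those were Hmga2, a chromatin protein of fetal progenitors, at 773 and 213 CPM, and Igf2bp1, a fetal RNA-binding protein, at 89.2 and 32.7 CPM. The median log2 ratio of the 7 was -0.73, beside 0.00 over all genes tested. In interstitial cells Hmga2 and Igf2bp1 were again the 2 of 7 called lower, with 0 higher and a median of -0.25 beside -0.11, where 3.77% of all genes were called lower and 3.56% higher. In supporting cells 1 of 9 was called higher (Tubb3, a neuronal tubulin, 0.626 and 4.18 CPM) and 2 lower (Hmga2 and Igf2bp1), and 14.1% of all genes were called in either direction. In endothelial cells 3 of 8 were called lower, namely Stmn2, Mdk and Hmga2, and 0 higher, and 5.47% of all genes were called in either direction. Stmn1 and Mdk, the 2 genes of the list with the highest levels, were at 2077 and 2128 CPM in the surface epithelium at E11.5 and at 1215 and 1336 CPM at E14.5. Stmn1 encodes a tubulin-binding protein and Mdk the growth factor midkine. The called genes named here were picked after their values were seen.

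Sox9 (chr11:112782224-112787760, plus strand of GRCm38, 3 exons), the factor that drives Sertoli cell differentiation in XY gonads, was present at a low level in supporting cells of these libraries labelled XX. Its level there was 15.0, 11.46, 16.5 and 11.9 CPM in stage order, with no steady course, and the log2 ratio of E14.5 over E11.5 was -0.33 (-0.67 to -0.00), not called. At E14.5 the 157 supporting cells with a Y-linked UMI had 16.51 CPM (11.22 to 23.44) and the 503 without one 10.39 CPM (7.93 to 13.38), with overlapping intervals. Without the cells that had a Y-linked UMI or lacked Xist the log2 ratio was -0.53, and with cells of more than 1 class kept it was -0.94. After thinning, 6.83% (5.80 to 7.97), 4.90%, 7.25% and 4.39% (2.96 to 6.25) of supporting cells had a Sox9 UMI. Without thinning 15.2% had one at E11.5 and 9.09% at E14.5, at median depths of 13876 and 9590 UMIs. In the germ class 0 cells had a thinned Sox9 UMI at the first 3 stages, which allows shares of up to 1.32%, 0.495% and 0.416%. At the last stage 6 of 2299 germ cells, or 0.261%, had one. The supporting share was above the germ share at every stage. Germ cells had deeper medians, 31050 and 15389 UMIs at the first and last stage, so thinning can dilute free RNA more in them. Their share therefore does not set the background of supporting cells. Other somatic classes reached 5.67% (interstitial, E11.5) and 3.49% (surface epithelial, E14.5).

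In interstitial cells, which include mesenchyme, Sox9 was at 15.2, 4.92, 3.42 and 3.10 CPM. The E11.5 value stood above the other 3 with no overlap of Poisson intervals. After thinning, Sox9 was found in 5.67%, 1.43%, 1.35% and 0.990% of interstitial cells in stage order. There the E11.5 interval (3.3 to 8.9) overlapped those of E12.5 (0.30 to 4.1) and E14.5 (0.12 to 3.5). The log2 ratio of E14.5 over E11.5 was -2.29 (-3.67 to -1.16), called lower, as were 3.77% of 8427 genes tested. It rests on 61 UMIs in 32 of 300 cells at E11.5 and 7 UMIs in 5 of 202 cells at E14.5. With cells of more than 1 class kept the log2 ratio was -1.79. When a class marker needed 2 UMIs it was -4.35. Most of the difference lay in the first step, with a log2 ratio of -1.63 (-2.55 to -0.79), called lower, as were 2.27% of genes. Against the supporting class the interstitial level had a log2 ratio of 0.02 at E11.5, and then -1.22, -2.27 and -1.94, each called lower, as were 13.9%, 15.8% and 13.7% of genes. A list of 8 markers of the mesonephric epithelium and rete, where Sox9 is also known to be active, summed to 84.7, 99.8, 111 and 114 CPM in interstitial cells, of which Emx2, a gene also high in supporting and surface epithelial cells, made up 72.0, 90.9, 102 and 103 CPM. The other 7 markers summed to 12.7, 8.86, 9.06 and 11.1 CPM. Erythroid transcripts in interstitial cells were at 986, 4952, 891 and 6278 CPM, and the part of either list in the Sox9 difference was not tested. Surface epithelial cells had 6.85, 5.17, 2.99 and 6.44 CPM with overlapping intervals between the first and last stage. Their log2 ratio of E14.5 over E11.5 was -0.09, and -0.86 with cells of more than 1 class kept. Surface epithelial cells were called lower than supporting cells in the first 3 stages, with log2 ratios of -1.13, -1.15 and -2.46, against 14.3%, 12.8% and 12.2% of genes. The endothelial class had 3 to 9 Sox9 UMIs per stage and allows no statement.

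Because SOX9 also marks epithelia of the mesonephros and rete, supporting cells were divided by whether they held Pax8, a transcription factor of those epithelia. Supporting cells with a Pax8 UMI had 25.0, 34.1, 35.8 and 36.0 CPM of Sox9, and those without had 13.01, 8.67, 13.52 and 8.27 CPM. The intervals of the 2 groups did not overlap at any stage. The division was made on unthinned cells, so depth can affect which cells enter the Pax8 group. Levels are scaled to all UMIs of the group, and the part of depth or of droplets with 2 cells was not tested. After thinning, Pax8 was found in 13.6%, 14.3%, 12% and 24.1% of supporting cells with Sox9, the last in 7 of 29 cells. Among those without Sox9 it was found in 7.92%, 5.25%, 6.32% and 5.07%. The intervals overlapped at E11.5 (8.51 to 20.2 with Sox9, 6.78 to 9.19 without) and E13.5 (6.87 to 19.0 and 5.17 to 7.62). At E12.5 and E14.5 they did not overlap. Pax8-positive cells held 130 of the 478 Sox9 UMIs of the class at E11.5 and 36 of 91 at E14.5. Pax2, a second marker of those epithelia, was in at most 2 of the Sox9-positive thinned cells at any stage, and Cdh16, of kidney tubules, was at 0, 0, 0.391 and 1.31 CPM in the supporting class. The summed level of the 8 mesonephric and rete markers in the supporting class was 255, 243, 237 and 201 CPM, and that of the 7 without Emx2 was 31.4, 22.9, 26.6 and 30.7 CPM. Their part in the Sox9 level was not tested.

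**Figure D4:**
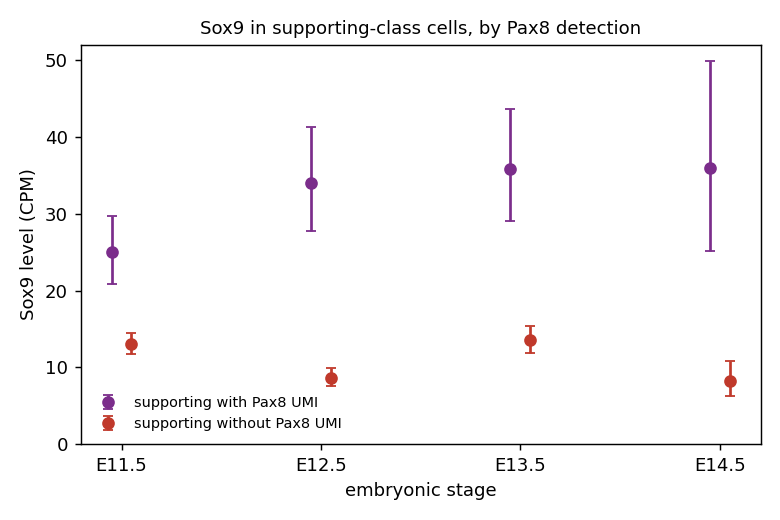
Sox9 level in CPM (vertical axis) by stage (horizontal axis) in supporting-class cells with a Pax8 UMI (purple) and without one (red), with 95% Poisson intervals. The Pax8 group lies between 25.0 and 36.0 CPM and the other between 8.27 and 13.52 CPM.

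Of 9 tested genes of the testis pathway, 0 were called higher with stage in supporting cells, a count near the share of all genes (9.87%). Amh, the Sertoli hormone that SOX9 activates, was at 0.501, 0.582, 0.537 and 0.915 CPM in supporting cells, Dhh, a Sertoli signal, at most 0.532 CPM, and Fgf9, which maintains Sox9 in the testis, 0.814 CPM at the first stage and 2.61 at the last. Of 16 listed genes of that pathway, 15 were in the table and 9 could be tested between E11.5 and E14.5. None was called higher and 4 were called lower, where 9.87% of all genes were called higher and 4.28% lower. Those 4, named after their values were seen, were Dmrt1 (30.3 to 1.96 CPM), Cyp26b1, a retinoic acid-degrading enzyme (12.7 to 1.31 CPM), Nr0b1 (76.7 to 24.3 CPM) and Cst9 (60.1 to 5.88 CPM). Wt1, Gata4 and Nr5a1, which act in the early gonad of both sexes, stood at 542, 157 and 74.5 CPM at E11.5 and 371, 107 and 58.0 CPM at E14.5, without a call. The median log2 ratio of the 9 was -0.55, beside 0.09 over all genes. Amh, Dhh and Fgf9 were among the 6 listed genes with too few UMIs to be tested. Of these 6, Fgf9 (log2 ratio 1.68, 0.77 to 2.58) and Sox8 (1.60, 0.58 to 2.60) had intervals above 0. Hsd17b3 (-2.11, -5.21 to -0.15) had one below 0.

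Of 12 genes of the ovarian pathway that opposes SOX9, 10 could be tested, and 1 was called higher and 0 lower, a share near that of all genes (9.87% higher and 4.28% lower). Axin2, a target and feedback inhibitor of WNT signalling, was the gene called and went from 15.0 to 75.3 CPM, a log2 ratio of 2.33 (2.15 to 2.51). Wnt4 (299.6 to 203 CPM) and Fst (279 to 247 CPM), which also define the class, and Rspo1, the ligand that potentiates WNT signalling (113 to 126.5 CPM), were not called. Rspo1 was found after thinning in 39.5%, 35.2%, 38.4% and 48.3% of supporting cells with Sox9 and in 40.4%, 34.5%, 47.7% and 43.3% of those without. Of 13 listed cartilage targets and partners of SOX9, 12 were in the table and 6 could be tested in supporting cells, where 2 were called higher (Acan, 1.97 to 5.49 CPM, and Sox6, 2.75 to 6.14 CPM) beside 9.87% of all genes, and 5 in interstitial cells, where 1 was called higher (Col9a2, 4.49 to 29.2 CPM) and 0 lower, beside 3.56% of all genes called higher. The cartilage collagen Col2a1 was at most 0.532 CPM in either class.

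The SOXF genes were highest in the endothelial class at every stage. Sox17 (chr1:4490931-4497354, minus strand), which acts in arterial endothelium, was at 151, 169, 266 and 184 CPM in the endothelial class and at most 1.74 CPM in the other 4 classes (7 UMIs in interstitial cells at E11.5). Sox7 (chr14:63943673-63950732, plus strand), which acts in hemangioblasts and early vessels, was at 61.1, 71.2, 91.6 and 47.0 CPM and at most 0.548 CPM in the other 4. Sox18 (chr2:181669836-181671640, minus strand), which starts the lymphatic program in veins, was at 13.96, 16.2, 27.4 and 9.80 CPM, the last from 5 UMIs, and at most 0.369 CPM in the other 4. Cells of no class, which are in no comparison, had up to 2.69 CPM of Sox17 (52 UMIs) and 1.45 CPM of Sox7 (28 UMIs), both in the first library. For each of the 3 genes the lowest endothelial value was above the highest value in any other class.

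Against the supporting class of the same library, Sox17 was higher by a log2 ratio of 9.42 (8.37 to 10.75), 9.18, 9.24 and 10.46 (7.95 to 15.78) in stage order, on 7, 8, 9 and 1 supporting UMIs, and was called at 4 of 4 stages. The shares of all genes called in either direction there were again 32.7%, 32.5%, 28.7% and 20.9%. Sox7 was called at the first 3 stages, with log2 ratios of 9.35 (7.77 to 11.64), 10.93 (8.44 to 16.24) and 9.29 (7.70 to 11.59) on 3, 1 and 3 supporting UMIs. At E14.5 it had 24 endothelial and 0 supporting UMIs, at least 119.9-fold higher against a limit of 3 UMIs, but under the minimum of 50 UMIs. Sox18 reached that minimum at E12.5 (50 and 2 UMIs), with a log2 ratio of 7.80 (5.87 to 10.88).

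All 3 genes had their highest endothelial value at E13.5. From E12.5 to E13.5 the log2 ratio was 0.65 (0.44 to 0.87) for Sox17, 0.36 (0.00 to 0.71) for Sox7 and 0.76 (0.05 to 1.45) for Sox18. From E11.5 to E14.5 it was 0.29 (-0.05 to 0.62) for Sox17 and -0.38 (-1.07 to 0.25) for Sox7, and no SOXF gene was called between neighbouring stages or between E11.5 and E14.5. The E13.5 peak depends on which cells are counted. With cells of more than 1 class kept, which made 155, 210, 138 and 69 endothelial cells, Sox17 was at 117, 141, 134 and 107 CPM, Sox7 at 47.7, 58.7, 48.5 and 27.6 CPM and Sox18 at 11.3, 13.53, 13.7 and 3.94 CPM. Sox17 and Sox7 were then highest at E12.5, and the log2 ratio of Sox17 from E11.5 to E14.5 turned to -0.13.

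After thinning, Sox17 was found in 48.1% (39.4 to 56.95), 48.9%, 67.4% and 50% (32.9 to 67.1) of endothelial cells, Sox7 in 22.6%, 25.9%, 24.4% and 19.4%, and Sox18 in 8.27%, 5.17%, 15.1% and 5.56%. In the supporting class the share with Sox17 was at most 0.232%. Unthinned, Sox17 was found in 74.4% of endothelial cells at E11.5 and 77.8% at E14.5. Over the 429 endothelial cells of all stages, 35.0% had none of the 3 genes, 47.1% had 1, 16.3% had 2 and 1.63% had all 3. Sox17 alone was found in 35.0%, Sox7 alone in 9.79%, Sox18 alone in 2.33%, and Sox7 with Sox17 in 13.8%. At this depth most endothelial cells showed at least 1 SOXF gene and fewer showed more.

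**Figure D5:**
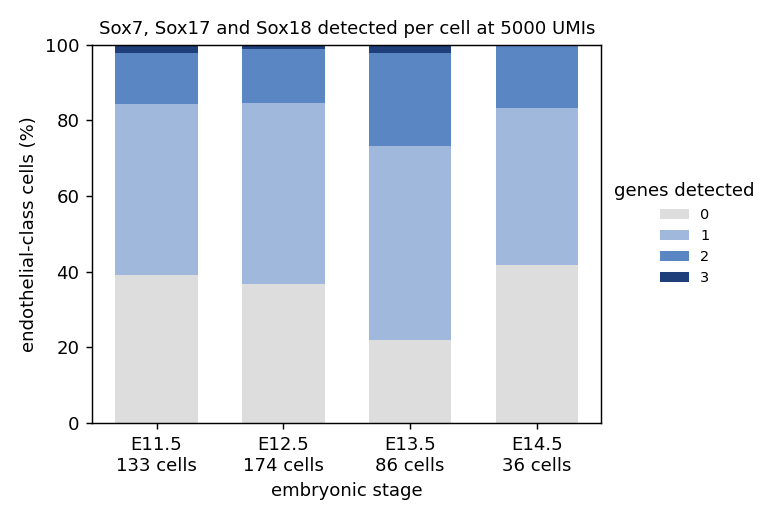
Share of endothelial-class cells (vertical axis, percent) in which 0, 1, 2 or 3 of Sox7, Sox17 and Sox18 were detected after thinning to 5000 UMIs, by stage with the number of cells (horizontal axis). The part with none was 39.1%, 36.8%, 22.1% and 41.7% in stage order.

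Sox7 was detected more often in cells that held an arterial gene. Endothelial cells with a UMI of Dll4, Gja4, Gja5, Hey1 or Efnb2 and none of the venous genes Nr2f2, Ephb4 and Nrp2 had Sox7 in 31 of 87 cells, or 35.6% (25.7 to 46.6), after thinning. Those with a venous gene alone had it in 28 of 177 cells, or 15.8% (10.8 to 22.1). The arterial share was the higher one at each stage, with 36.7% and 14.3%, 39.4% and 16.7%, 26.3% and 12.9%, and 40% and 21.1% in stage order, the last on 5 and 19 cells. Within each single stage the intervals overlapped. Sox17 was found in 49.4% (38.5 to 60.4) of arterial-only and 52.0% (44.4 to 59.5) of venous-only cells, and Sox18 in 10.3% and 7.91%, with overlapping intervals. Pooled cells come from 4 libraries and are not replicates.

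Of 30 listed endothelial genes that act with or downstream of SOXF proteins, 26 could be tested between E11.5 and E14.5, 1 was called higher and 4 lower, where 2.58% and 2.89% of all genes were called. The median log2 ratio was -0.04, the same as over all genes. Nrp2, a receptor of veins and lymphatics, went from 59.4 to 137 CPM. Plvap, of fenestrated vessels, went from 820 to 359 CPM, and Notch4, Hey1 and Efnb2, of the arterial Notch pathway, from 24.4 to 3.92, from 50.6 to 17.6 and from 41.9 to 17.6 CPM. Other arterial or Notch genes of the list had higher values at the last stage, without a call, with Dll4 at 24.4 and 43.1, Gja4 at 103.9 and 147, Gja5, which had too few UMIs to be tested, at 1.75 and 17.6 and Notch1 at 80.7 and 105.8 CPM. All 9 were named after their values were seen. Cldn5 and Egfl7, with the highest levels of the list beside Plvap, and Emcn stood at 835, 686 and 519 CPM at E14.5, without a call.

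For each gene the 3 genes most alike over the 20 class and stage sums were sought among 8696 genes that reached 20 CPM in at least 1 sum, by Pearson correlation of log2(CPM + 5). Sox17 was most like Cd93 (r = 0.999), Thsd1 and Cyyr1 (both 0.998), and Sox7 most like Arhgef15, Cyyr1 (both 0.998) and Bcl6b (0.997). Sox18 was most like Adgrl4 (0.996), Sox7 (0.991) and Card10 (0.990). Cd93, an endothelial surface protein, stood at 266, 334, 411 and 378 CPM in the endothelial class and at most 1.197 CPM in the other 4. The 3 SOXF correlations rest on the step between the endothelial class and the rest. Sox11 was most like Flna (0.977), the actin crosslinker filamin A, C330007P06Rik (0.973) and Mex3a (0.971). Sox4 was most like Dtx3 (0.974), Kdm6b and Ergic3 (both 0.972), and Sox9, with few UMIs, like Unc45a (0.898), Decr2 (0.894) and Mrps23 (0.886). The 20 sums share 4 libraries and 5 classes, so these values are descriptions.

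Among 13 other SOX family genes of the table, 6 reached 20 CPM in some class and stage. Sox12, the third SOXC gene, was at 51.8, 69.6, 70.8 and 41.3 CPM in surface epithelial cells and 38.8, 47.7, 48.1 and 29.3 CPM in supporting cells. Sox5 was at 36.8 to 46.0 CPM in supporting cells, and Sox6, of the same SOXD group, at 29.9 to 48.5 CPM in surface epithelial cells. Sox13, the third SOXD gene, was at 15.3, 27.5, 28.3 and 27.4 CPM in endothelial cells. Sox2 and Sox15 were germ cell genes, at 111 and 60.8 CPM at E11.5 and 58.9 and 6.72 CPM at E14.5 in that class, and at most 1.74 CPM in somatic classes. Sox8, the SOXE relative that acts beside Sox9 in Sertoli cells, was at most 2.09 CPM in any class, one of 7 that stayed below 20 CPM.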

How the data were processed

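Dissociated XX gonads were profiled as 1 library for each of 4 stages. Per the submitters' processing notes, Cell Ranger 2.2.0 and mm10 were used. Cell filters, annotation and normalization tool are not given in the sources used here. The values deposited by the authors are on a natural log scale, each UMI count divided by the cell's total, times 10000, plus 1, then logged, which was read from the values. With the log undone, all 69792436 values above 0 were whole multiples of their cell's smallest value (relative tolerance 1e-06), so UMIs were recovered and used. Cells over 20% mitochondrial UMIs or under 200 genes (3, 1, 1 and 0 cells) were left out. No doublet caller was run. Cells that met more than 1 class rule (236, 416, 513 and 614) were left out instead, and 1255, 732, 808 and 632 cells met none.

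UMIs were summed by class and stage (Python 3.11.15, numpy 2.4.6, scipy 1.17.1, pandas 2.3.3). Levels have Poisson, ratios exact binomial and shares Clopper-Pearson intervals, and a count of 0 allows up to 3. The seeded thinning left out 0 cells. On data simulated from the class sums of 19321 genes, 200 genes were changed 3-fold or 4-fold in each E14.5 against E11.5 comparison. The rule of size found 99.5% to 100% of these genes and called 5 to 18 unchanged genes. Class sums hold no variation between libraries or between cells, so these values cover counting error only. They were not divided by UMI count and do not describe genes with few UMIs, such as Sox9 in interstitial cells.

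Gene positions are from GENCODE M21. The genes, class rules and lists were chosen with earlier results of these data known. Text names the 6 members, other SOX genes that reached 20 CPM, the 3 genes most like each member and, per list, called genes and genes of high level.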

Additional observations from a re-analysis of the deposited data

Results flagged for a closer look

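Sox4 moved in opposite directions in different classes between E11.5 and E14.5. Its log2 ratio of E14.5 over E11.5 was -0.37 in supporting, -0.17 in surface epithelial and -0.50 in interstitial cells, against 1.03 in endothelial and 0.98 in germ cells. None of the 5 intervals included 0. Under the alternatives the supporting ratio lay between -0.50 and -0.14, the latter in cells of at least 9791 UMIs. The germ ratio was 0.61 under median-of-ratios scaling. The difference between the classes was not tested, since each stage was 1 library.

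Cells that met no class rule were left out of every comparison, and all 6 genes were found in them above the limit of 3 UMIs. Over the 4 libraries together these cells had 213.7 CPM of Sox4, 187.9 CPM of Sox11, 7.49 CPM of Sox9, 1.70 CPM of Sox17, 0.837 CPM of Sox7 and 0.146 CPM of Sox18. They held 32.6% of the Sox11 UMIs of the E11.5 library and 24.8% of those at E14.5, and 12.2% and 1.95% of the Sox17 UMIs.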

How the results depend on the processing

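No paired analysis was possible because each stage was a single library and the groups share no second replicate number. No called ratio of the 6 genes changed sign. The fall of Sox9 in interstitial cells was -4.35 when a marker needed 2 UMIs. The Sox11 log2 ratio of the interstitial over the supporting class was 2.26, 2.08, 1.92 and 1.73 in stage order with cells of more than 1 class kept. With 2 UMIs of a marker it was 2.65 at E11.5 and 2.47 at E12.5, as a mean over cells 2.63 at E11.5, under median-of-ratios scaling 2.37 at E11.5, and in cells of at least 9791 UMIs 1.74 at E14.5. The share of endothelial cells with Sox17 was 22.6%, 24.7%, 38.4% and 27.8% when thinned to 2000 UMIs and 74.4%, 80.5%, 86.05% and 77.8% with no thinning. It was 51.4% at E13.5 with cells of more than 1 class kept. The genes called between E11.5 and E14.5 numbered 1722, 832, 618, 312 and 4532 in supporting, surface epithelial, interstitial, endothelial and germ cells. With a 4-fold limit they numbered 527, 194, 107, 62 and 1845, and with a minimum of 200 UMIs 927, 312, 196 and 77 in the first 4. With no minimum there were 1270 in the surface epithelium and 498 in endothelial cells, with 2 UMIs of a marker 347 in interstitial cells, and with cells of more than 1 class kept 733 in endothelial cells. The cause was not tested, except that a stricter limit passes fewer genes and a shallower cell shows fewer molecules. Leaving out cells with a Y-linked UMI and somatic cells without Xist, an alternative chosen after seeing the data, kept all 22 stage ratios within their intervals. It left out 2 of 2154 supporting cells at E11.5 and 157 of 660 at E14.5. Keeping cells of more than 1 class moved 6 of 22 stage ratios, 36 of 58 ratios over the supporting class and 42 of 120 levels out of their intervals. Median-of-ratios scaling moved E14.5 over E11.5 ratios by -0.36 in germ cells and by -0.11 to 0.10 in somatic classes. At least 2 of the 3 genes most like a member were kept for 5 of 6 members with a pseudocount of 1 and for 1 of 6 among genes of at least 100 CPM. Few UMIs limit endothelial Sox18 (5 to 50 per stage) and Sox9 (3 to 9).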
